A study of Mus musculus with 12 samples.

Results

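The core circadian clock was followed through 10 genes, all protein coding, in the livers of mice with CCl4-induced fibrosis. These are the activators Arntl, Clock and Npas2 and the repressors Per1, Per2, Per3, Cry1, Cry2, Nr1d1 and Nr1d2, taken by gene name as 10 of the 21936 genes in the expression table. Male C57BL/6J mice, 6 weeks old on arrival, all received CCl4, a hepatotoxin that injures the pericentral hepatocytes, at 1 mL/kg by intraperitoneal injection 2 times a week for 8 weeks. LFG mice were sacrificed after CCl4, REG mice then received 200 µL PBS by the tail vein 2 times a week for 4 weeks, and hADMSCs-Exo mice received 250 µg of exosomes from human adipose mesenchymal stem cells in 200 µL PBS on the same schedule. Each group had 3 libraries of whole liver RNA, named below by group and replicate, and an hADMSCs group of 3 samples was not analysed here. LFG livers were therefore taken at another age and time since the last CCl4 dose than the others, and these cannot be told apart from the treatment. The hour of the day at which livers were collected, the lighting and the feeding state were not given in the sources used here. The labels do not say that replicates were separate animals, so p-values measure the spread between these libraries.

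The clock is a loop of transcription and feedback that runs in nearly every cell of the liver. The proteins of Arntl (BMAL1) and Clock, or its relative Npas2, bind E-box sequences and switch on the Per, Cry and Nr1d genes, and PER and CRY proteins then silence that activity. The Nr1d genes encode the receptors REV-ERBα and REV-ERBβ, which repress Arntl, Clock, Npas2 and Cry1 through RORE sequences, so that in liver the Arntl transcript and the Nr1d1 transcript peak at opposite times of day, with Per transcripts after Nr1d1 and the Cry1 transcript later still.

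The promoter windows of members that hold a sequence motif of this loop are shown, since these motifs are the letters through which the loop is known to act. RefSeq windows of the build GRCm38.p6, running from 250 bases before to 50 after a transcription start, were found for 9 of the 10 genes (13 windows, since some genes have several starts), and there was none for Per2. Both strands were searched for the E-box CACGTG, the D-box TTATGTAA or TTACGTAA bound by DBP and NFIL3, the cAMP response element TGACGTCA, and the RORE core TAGGTCA or TGGGTCA. Matches, in capitals here, lay in 4 windows of 4 genes, each written 5′ to 3′ on the strand of the gene.
Per1, chr11:69098699-69098998, plus strand: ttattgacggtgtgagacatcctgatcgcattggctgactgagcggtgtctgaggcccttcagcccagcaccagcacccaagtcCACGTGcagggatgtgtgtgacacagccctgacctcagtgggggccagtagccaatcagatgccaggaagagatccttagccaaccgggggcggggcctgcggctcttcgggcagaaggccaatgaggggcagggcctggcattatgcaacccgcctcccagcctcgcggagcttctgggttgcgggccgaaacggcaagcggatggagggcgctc
Cry1, chr10:85185005-85185304, minus strand: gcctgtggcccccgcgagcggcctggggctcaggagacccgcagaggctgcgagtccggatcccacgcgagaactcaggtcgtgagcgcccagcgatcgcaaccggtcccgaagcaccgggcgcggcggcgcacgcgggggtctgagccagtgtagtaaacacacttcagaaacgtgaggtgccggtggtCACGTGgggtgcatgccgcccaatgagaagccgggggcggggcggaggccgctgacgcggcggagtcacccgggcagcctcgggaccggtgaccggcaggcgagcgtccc
Per3, chr4:151044616-151044915, minus strand: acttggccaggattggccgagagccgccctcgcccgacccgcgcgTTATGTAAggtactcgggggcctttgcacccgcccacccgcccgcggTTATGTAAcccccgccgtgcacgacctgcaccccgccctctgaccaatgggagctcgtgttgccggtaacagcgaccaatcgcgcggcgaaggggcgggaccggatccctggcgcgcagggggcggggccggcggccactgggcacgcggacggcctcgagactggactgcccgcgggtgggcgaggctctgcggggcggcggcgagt
Arntl, chr7:113207261-113207560, plus strand: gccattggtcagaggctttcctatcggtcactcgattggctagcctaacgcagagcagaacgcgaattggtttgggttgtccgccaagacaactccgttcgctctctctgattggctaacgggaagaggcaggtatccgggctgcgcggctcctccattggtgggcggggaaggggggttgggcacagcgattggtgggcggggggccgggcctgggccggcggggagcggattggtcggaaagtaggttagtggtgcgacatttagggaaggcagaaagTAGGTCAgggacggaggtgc
Counting the first transcribed base as 0, the E-box of Per1 lay at -166 to -161 and that of Cry1 at -60 to -55. Per3 held the D-box TTATGTAA 2 times, at -205 to -198 and at -158 to -151. The RORE core of Arntl lay at 30 to 36, downstream of the start, and did not overlap another motif. Among all 32817 RefSeq windows of the same length, 7.15% held the E-box, 1.05% a D-box, 1.79% the cAMP response element and 6.46% a RORE core. These matches describe the letters only, and no binding was measured.

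Library totals were 13837445 to 17261497 counts in LFG, 16661288 to 19840917 in REG and 16457357 to 16984402 in hADMSCs-Exo. LFG 3 stood apart from LFG 1 and LFG 2: genes with a count numbered 13924 in it against 15248 in LFG 1, and its TMM factor (the scaling for composition between libraries) was 0.808 against 1.38 and 1.09. The summed FPKM (counts per length of gene and size of library) of 7 stellate cell markers was 2.53 in LFG 3 against 190 and 92.1, and of 6 macrophage markers 52.7 against 1031 and 621. The 5 pericentral hepatocyte markers summed to 5965 FPKM in LFG 3 against 843 and 1645. Of all 9 libraries LFG 3 had the lowest stellate and macrophage sums and the highest pericentral sum, and so stood apart from the other libraries of its label. The 6 hepatocyte markers summed to between 50890 and 77704 FPKM in the 9 libraries, with none at 0, as the liver label says. In whole liver, fewer cells of a type and less RNA per cell cannot be told apart.

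Gene positions below are those of GRCm38. By median FPKM over the 9 libraries, the order was Nr1d2 (14.4), Nr1d1 (11), Per2 (8.55), Per1 (8.45), Cry2 (6.52), Per3 (3.75), Cry1 (2.91), Clock (1.06), Arntl (0.175) and Npas2 (0.0127). FPKM is per length, so these levels can be set side by side. The ranges of neighbours in this order overlapped throughout, so that the ends of the order are apart but adjacent genes are not. By group mean Nr1d1 was above Nr1d2 in REG (15.1 and 14.4 FPKM), below Per1 and Per2 in LFG (10.9 against 12.7 and 11.3) and below Per2, Per1 and Cry2 in hADMSCs-Exo (6.4 against 8.78, 8.02 and 7.05). Nr1d1 ranged from 3.14 to 21.4 FPKM, 6.81-fold, and Cry1 from 1.24 to 7.69, 6.20-fold. Nr1d2, the close relative of Nr1d1, ranged 1.97-fold.

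**Figure D1:**
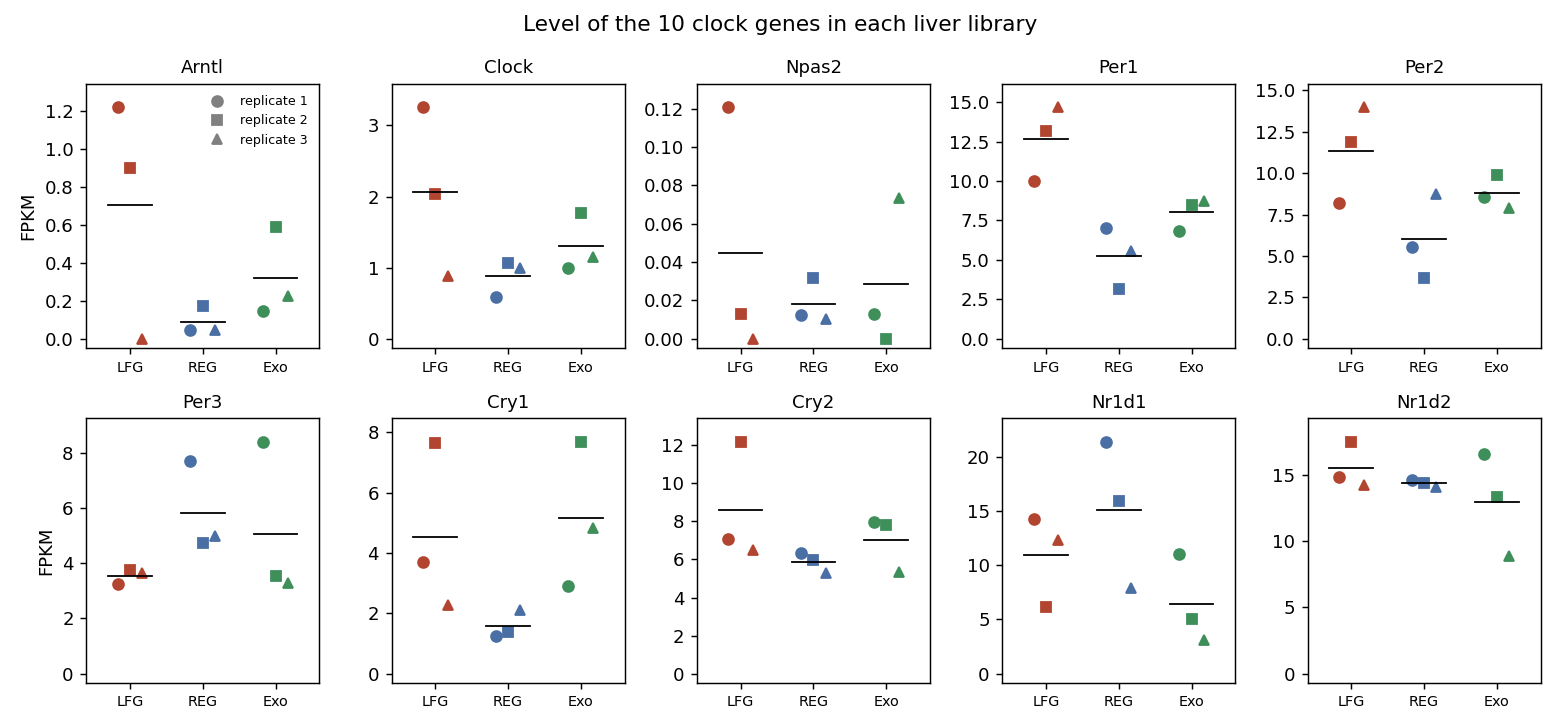
Level (FPKM, axis from about 0 and scaled per gene) of each of the 10 clock genes in the 3 libraries of LFG, REG and hADMSCs-Exo (written Exo), where the symbol gives the replicate and the line the group mean. Arntl is at 0 in LFG 3 and at 1.22 in LFG 1, and Cry1 is at 1.24 to 2.11 in REG and at 2.91 to 7.69 in hADMSCs-Exo.

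Arntl (ENSMUSG00000055116, chr7:113207465-113314126), the partner that every activator complex needs, had 158 counts in LFG 1, 111 in LFG 2 and 0 in LFG 3, or 1.22, 0.897 and 0 FPKM. A count of 0 allows up to about 3 counts as a one-sided limit, which is 0.0288 FPKM in LFG 3. REG held 6, 26 and 7 counts (0.0479, 0.175 and 0.0469 FPKM) and hADMSCs-Exo 18, 73 and 29 (0.145, 0.589 and 0.227 FPKM). LFG 1, LFG 2 and hADMSCs-Exo 2 were the high libraries, and every pair of groups overlapped because LFG 3 was lowest of all and hADMSCs-Exo 1 was below REG 2. At these counts the error of counting alone is wide: the exact 95% Poisson interval of the 6 counts in REG 1 runs from 2.2 to 13.1 counts, and covers counting error only. Mean levels were 0.705 ± 0.631 FPKM in LFG, 0.0900 ± 0.0738 in REG and 0.321 ± 0.236 in hADMSCs-Exo (SD, n = 3).

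Within LFG the Arntl values ran in the same order as the summed stellate cell markers (190, 92.1 and 2.53 FPKM) and macrophage markers (1031, 621 and 52.7 FPKM), none of which was at 0 in any library. The order of the stellate sums was also that of Arntl within hADMSCs-Exo (5.07, 11.3 and 8.24 FPKM). Within REG both were highest in REG 2 (20.5, 26.0 and 14.2 FPKM in REG 1, 2 and 3), and Arntl was not distinguishable between REG 1 and REG 3, at 6 and 7 counts. Between these groups it was not: hADMSCs-Exo had the lower stellate sums and the higher mean of Arntl. Macrophage markers summed to 595, 320 and 221 FPKM in REG and 468, 415 and 452 in hADMSCs-Exo, in another order than Arntl. The part of cell composition in the Arntl values was not tested.

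Clock (ENSMUSG00000029238, chr5:76209868-76304792), which pairs with the Arntl protein and carries histone acetyltransferase activity, stood at 3.26, 2.03 and 0.879 FPKM in LFG 1, 2 and 3. REG held 0.590, 1.06 and 1.00 FPKM, and hADMSCs-Exo 1.00, 1.77 and 1.15. The same 3 libraries that were high in Arntl were high in Clock, and all pairs of groups overlapped. Npas2 (ENSMUSG00000026077, chr1:39193731-39363236), which can stand in for Clock, had 10, 1 and 0 counts in LFG, 1, 3 and 1 in REG and 1, 0 and 6 in hADMSCs-Exo. These counts were too few for the filter of the test, and differences in Npas2 were not detectable at this depth.

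Per1 (ENSMUSG00000020893, chr11:69095217-69109960), a repressor also induced directly by cAMP and glucocorticoid signals, stood at 10.0, 13.2 and 14.7 FPKM in LFG, 7.02, 3.14 and 5.56 in REG, and 6.84, 8.45 and 8.76 in hADMSCs-Exo. Its LFG libraries were all above the REG libraries, but after TMM scaling the gap between the nearest pair, LFG 1 at 5.36 and REG 1 at 5.35 log2 CPM (counts scaled to a common library size), was close to none. Per2 (ENSMUSG00000055866, chr1:91415982-91459324), its partner in the repressor complex, stood at 8.18, 11.9 and 14.0 FPKM in LFG, 5.53, 3.70 and 8.76 in REG and 8.55, 9.89 and 7.89 in hADMSCs-Exo. REG 2 was lowest and LFG 3 highest for both genes, so LFG 3, lowest for Arntl, was highest for Per1 and Per2. Per3 (ENSMUSG00000028957, chr4:151003652-151044665), whose loss leaves the loop running, stood at 3.24, 3.75 and 3.66 FPKM in LFG, 7.71, 4.75 and 5 in REG and 8.42, 3.53 and 3.27 in hADMSCs-Exo. REG was above LFG in every library, while hADMSCs-Exo 1 lay above all REG libraries and hADMSCs-Exo 2 and 3 below them.

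Cry1 (ENSMUSG00000020038, chr10:85131700-85185064), the late and strongest repressor of the CLOCK and BMAL1 pair, stood at 3.69, 7.64 and 2.27 FPKM in LFG, 1.24, 1.37 and 2.11 in REG and 2.91, 7.69 and 4.83 in hADMSCs-Exo. REG was below both other groups in every library. Its window above holds an E-box. Cry2 (ENSMUSG00000068742, chr2:92403646-92434043), the second cryptochrome, stood at 7.09, 12.2 and 6.52 FPKM in LFG, 6.35, 5.98 and 5.31 in REG and 7.99, 7.79 and 5.36 in hADMSCs-Exo. LFG 2 was the one library clearly above the rest, and on the TMM scale all groups overlapped, although the LFG values in FPKM lie above those of REG.

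Nr1d1 (ENSMUSG00000020889, chr11:98767932-98775333), encoding REV-ERBα, stood at 14.3, 6.14 and 12.3 FPKM in LFG, 21.4, 15.9 and 7.90 in REG and 11, 5.05 and 3.14 in hADMSCs-Exo. REG 1 and REG 2 were highest and hADMSCs-Exo 2 and 3 lowest, but hADMSCs-Exo 1 lay above REG 3, so the groups overlapped. Nr1d2 (ENSMUSG00000021775, chr14:18204054-18239127), encoding REV-ERBβ, stood at 14.8, 17.5 and 14.2 FPKM in LFG, 14.6, 14.4 and 14.1 in REG and 16.6, 13.3 and 8.90 in hADMSCs-Exo. The 3' end of Nr1d1 overlaps Thra, a thyroid hormone receptor gene on the opposite strand, over chr11:98767932-98769006 (1075 bases, of which 263 are exonic in both genes). The library kit is not described as marking strand, so reads from those bases cannot be told apart. Thra itself stood at 1.32 to 2.44 FPKM in LFG, 1.68 to 2.37 in REG and 1.23 to 1.90 in hADMSCs-Exo, and its log2 fold changes were 0.30 (SE 0.24) in REG against LFG and -0.34 (SE 0.22) in hADMSCs-Exo against REG. Per3 lies within the gene Camta1 on the same strand but shares 0 exon bases with it. Cry2 shares 295 exon bases with D930015M05Rik and Arntl 33 with Gm45355, both on the opposite strand, and the same limit holds for reads from those bases.

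Pairs of members were then read inside each library, where scaling between libraries drops out. The ratio of Cry1 to Nr1d1 in FPKM was 0.259, 1.24 and 0.185 in LFG, 0.0581, 0.0857 and 0.268 in REG and 0.264, 1.52 and 1.54 in hADMSCs-Exo. LFG 2, hADMSCs-Exo 2 and hADMSCs-Exo 3 had more Cry1 than Nr1d1 per length, and the other 6 libraries had less. Arntl minus Nr1d1 in log2 CPM was -2.24, -1.47 and -8.66 in LFG, -7.12, -5.11 and -5.72 in REG and -4.81, -1.78 and -2.43 in hADMSCs-Exo, the LFG 3 value resting on a count of 0. By this difference the REG libraries and LFG 3 were the lowest, and each hADMSCs-Exo value exceeded each REG value. Nr1d1 over Nr1d2 was 0.351 in LFG 2, 0.379 in hADMSCs-Exo 2 and 0.352 in hADMSCs-Exo 3, and between 0.559 and 1.47 in the others. These ratios are descriptions of single libraries and were not tested.

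**Figure D2:**
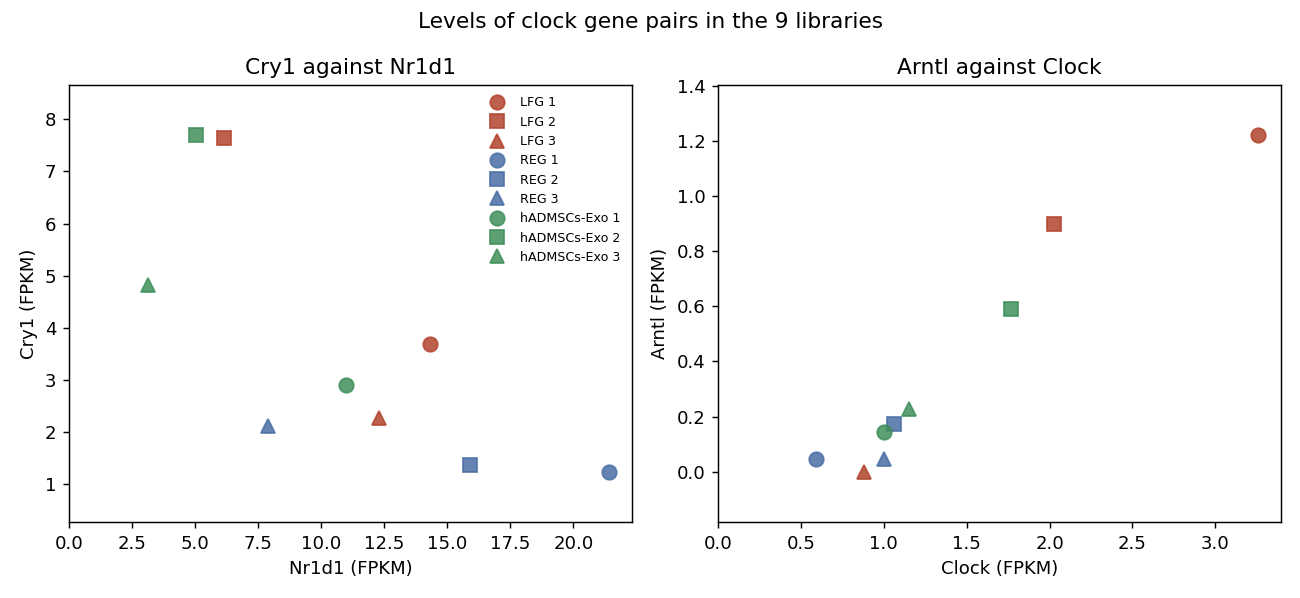
Cry1 against Nr1d1 (left) and Arntl against Clock (right), all in FPKM, with 1 point a library, coloured by group and shaped by replicate. LFG 2 and hADMSCs-Exo 2 lie almost together at upper left of the first panel (Cry1 of 7.64 and 7.69), REG 1 lies at its lower right, and in the second panel LFG 1, LFG 2 and hADMSCs-Exo 2 stand above the other 6.

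The members differed in how far libraries of 1 group spread. Pooled over the 3 groups, the within-group SD in log2 CPM was 2.10 for Arntl, 0.77 for Nr1d1 and 0.65 for Cry1, against a median of 0.38 over 12760 genes. That of Cry2 was 0.36 and that of Nr1d2 0.31. Without LFG 3 the values were 0.87 for Arntl, 0.76 for Nr1d1 and 0.68 for Cry1 against a median of 0.27, and these lay at the percentiles 95.7, 93.3 and 90.6 of all genes. Cry2 was then at 0.40 and Nr1d2 at 0.31, percentiles 69.7 and 56.4, so that both lay above that median.

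**Figure D3:**
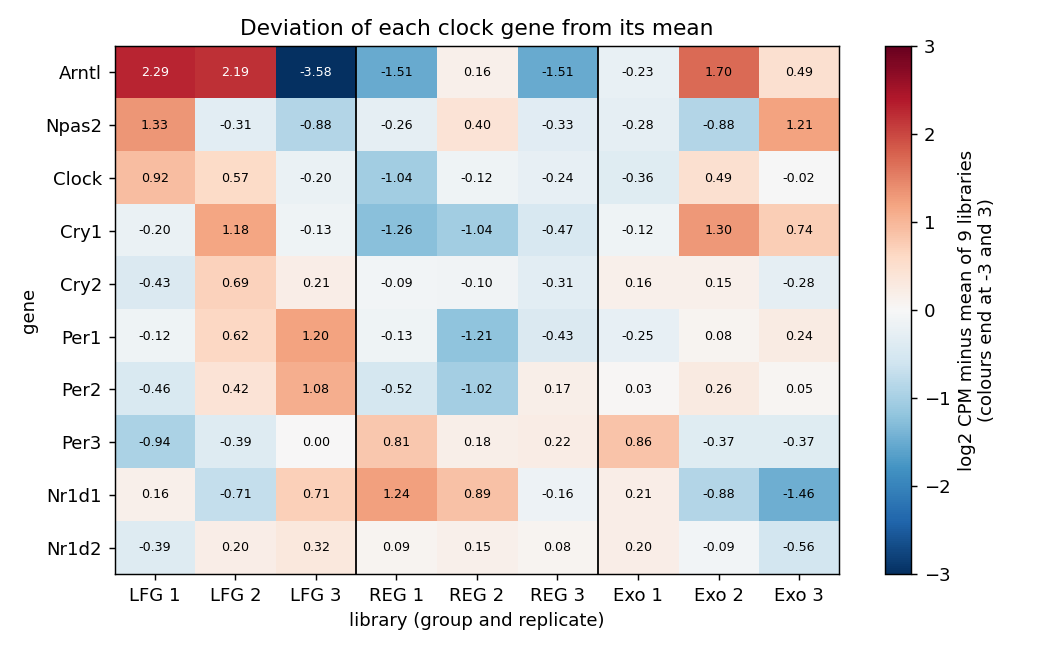
Log2 CPM of each clock gene minus its mean over the 9 libraries (numbers and colours, red above and blue below, colours ending at -3 and 3), with libraries in columns by group. In hADMSCs-Exo 3 Cry1 is at 0.74 and Nr1d1 at -1.46, and in REG 1 Cry1 is at -1.26 and Nr1d1 at 1.24. Npas2 values rest on 0 to 10 counts.

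REG against LFG asks what differed after 4 weeks of recovery on PBS. Lower values were seen for Cry1, Per1, Clock and Arntl and a higher value for Per3, but none passed the test in edgeR's quasi-likelihood fit (adjusted p below 0.05 together with a log2 fold change of 1 or more in either direction). Over all genes tested in this comparison 0% passed as well. At an unadjusted p under 0.05 there were 4 of the 9 tested members, Per3 higher and Clock, Per1 and Cry1 lower, where 11.3% of all genes did so. Groups did not overlap in log2 CPM for 3 of 9, Per3 above and Per1 and Cry1 below, against 18.9% of all genes. That count was 4 without REG 2 (22% of all genes), 5 without REG 3 (28.2%), 6 without LFG 1 (26.8%) and 5 without LFG 3 (55.2%). The median log2 fold change of the 9 was -0.84 and that of all genes -0.068.

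In this comparison edgeR gave Cry1 a log2 fold change of -1.32 (SE 0.45, adjusted p = 0.392) and Per1 one of -1.18 (SE 0.41, adjusted p = 0.392). Clock stood at -0.91 (SE 0.36, adjusted p = 0.416) and Per3 at 0.84 (SE 0.31, adjusted p = 0.401). Arntl had the largest value and the largest error, -2.56 (SE 1.33, adjusted p = 0.505). The remaining values were -0.84 (SE 0.46) for Per2, -0.38 (SE 0.29) for Cry2, 0.62 (SE 0.46) for Nr1d1 and 0.04 (SE 0.23) for Nr1d2, with adjusted p from 0.518 to 0.957 in edgeR.

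These values depended on LFG 3. Without it, 4 members passed both thresholds in edgeR's fit, Arntl at -3.09 (SE 0.56, adjusted p = 0.0181), Clock at -1.13 (SE 0.28, adjusted p = 0.0366), Cry1 at -1.50 (SE 0.41, adjusted p = 0.0475) and Per3 at 1.12 (SE 0.26, adjusted p = 0.0317), and so did 10.7% of all genes tested. Nr1d1 was then 1.02 (SE 0.42, adjusted p = 0.123), while Per1 was nearer to 0 at -0.78 (SE 0.33, adjusted p = 0.127) and Per2 at -0.37 (SE 0.37). Cry1 rested most on LFG 2, without which it was at -0.72, Cry2 at -0.08 and Nr1d1 at 0.32. With all 6 libraries, DESeq2 called 0 members (4 at an unadjusted p under 0.05, beside 14% of all genes) and limma voom with quality weights, which gives less weight to libraries far from their group, called Cry1 at -1.75 (adjusted p = 0.0236) and Per1 at -1.28 (adjusted p = 0.0331), 2 of 9 members where it called 10.3% of all genes. The adjusted p of Cry1 ran from 0.0236 to 0.928 over the alternatives and that of Arntl from 0.0181 to 0.928. The 4 members at an unadjusted p under 0.05 became 0 without LFG 2 (7.13% of all genes), 1 without REG 1 (6.22%), 1 without REG 2 (4.51%), 2 without REG 3 (8%) and 6 without LFG 3 (37.3%).

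**Figure D4:**
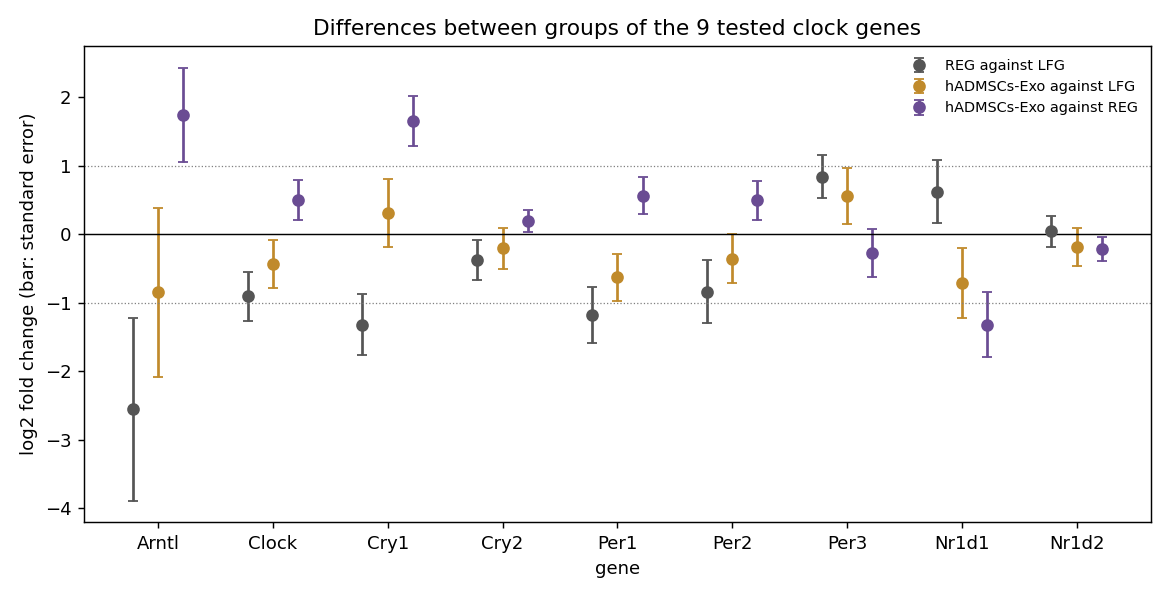
Log2 fold change of the 9 tested clock genes in the 3 comparisons from edgeR (points, with bars of 1 standard error on each side and dotted lines at -1 and 1). In hADMSCs-Exo against REG, Arntl (1.74) and Cry1 (1.65) stand highest and Nr1d1 (-1.32) lowest, and no point passed the adjusted threshold.

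hADMSCs-Exo against LFG asks the same for mice that received exosomes. None of the 9 tested members passed the test, as 0% of all genes, and 0 of 9 had an unadjusted p under 0.05, where 5.98% of all genes did. All 9 overlapped between the groups in log2 CPM, against 12.3% of genes that did not. Without LFG 1 there were 3 of 9 that did not overlap (18.6% of all genes), without LFG 3 also 3 (48%), and 1 each without LFG 2 (17.6%) and hADMSCs-Exo 1 (19%). Per1 was at -0.63 (SE 0.34), with the smallest adjusted p of the 9, 0.814 in edgeR, and Nr1d1 at -0.71 (SE 0.51, adjusted p = 0.868 in edgeR). Per1 was below LFG in all 3 libraries when read in FPKM, but overlapped after TMM scaling. Arntl was at -0.85 (SE 1.23), Clock at -0.44 (SE 0.35), Per2 at -0.36 (SE 0.36), Per3 at 0.55 (SE 0.41), Cry1 at 0.31 (SE 0.50), Cry2 at -0.21 (SE 0.30) and Nr1d2 at -0.19 (SE 0.28). With single libraries left out, Clock ran from -0.69 to -0.16 and Per3 from 0.04 to 0.82. Per1 ran from -0.90 to -0.24 and Nr1d1 from -1.30 to -0.33. The standard error of Arntl here is so wide that a large difference either way was not detectable. Without LFG 3 Arntl was -1.39 (SE 0.53, adjusted p = 0.14) and Clock -0.67 (SE 0.26, adjusted p = 0.15) in edgeR, and still 0 members passed, although 5.97% of all genes did. DESeq2 called 0 members and put 0 at an unadjusted p under 0.05 (8.45% of all genes), and limma voom 0 and 1 (28.1% of all genes). Beside the members, 5 of 7 stellate cell markers were lower and 3 of 4 tested neutrophil markers higher at that p in edgeR. All 7 stellate cell markers overlapped between the groups, while 5 of 7 lymphocyte markers were higher without overlap. Their part in the member values was not tested.

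hADMSCs-Exo against REG sets the exosome and the PBS group side by side at the same time after CCl4. Cry1 and Arntl were higher and Nr1d1 lower with exosomes by more than 1 on the log2 scale, and none passed the test in edgeR. Beside this, the pericentral hepatocyte markers summed to 2693 to 3070 FPKM in REG and 4001 to 5100 in hADMSCs-Exo, with 4 of 5 higher at an unadjusted p under 0.05, and 6 of 7 stellate cell markers were lower at that p and did not overlap. Their part in the member values was not tested. At an unadjusted p under 0.05 there were 3 of 9 members, those 3 genes, where 10% of all genes did so, and 0.00811% of all genes (1 gene) passed both thresholds. Only Cry1 did not overlap between the groups, 1 of 9 against 15.5% of all genes. The median log2 fold change of the 9 was 0.49 and that of all genes 0.008. This comparison shares its libraries with the other comparisons, and their values are not independent.

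Cry1 had a log2 fold change of 1.65 (SE 0.37, adjusted p = 0.358 in edgeR), with 3 of 3 hADMSCs-Exo libraries above all REG libraries. DESeq2 called it, with 1.64 (SE 0.37, adjusted p = 0.00317), among 0.543% of all genes, and limma voom gave 1.66 (adjusted p = 0.219). Over the alternatives its adjusted p ran from 0.00317 to 1. Arntl was at 1.74 (SE 0.69, adjusted p = 0.474 in edgeR) and Nr1d1 at -1.32 (SE 0.47, adjusted p = 0.432 in edgeR). The paper lists Cry1 as raised and Nr1d1 as lowered in hADMSCs-Exo against REG. Its methods give the same thresholds and name no test. Clock (0.50, SE 0.29), Per1 (0.56, SE 0.27) and Per2 (0.49, SE 0.28) had values above 0, and Cry2 (0.19, SE 0.16), Per3 (-0.28, SE 0.35) and Nr1d2 (-0.22, SE 0.18) lay nearer to it.

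The 3 hADMSCs-Exo libraries were not alike in these genes. Leaving out hADMSCs-Exo 1, with its Per3 of 8.42 and Nr1d1 of 11 FPKM, raised the members at an unadjusted p under 0.05 from 3 to 7, where 10.1% of all genes did so, and 7 of 9 members then did not overlap, 4 higher and 3 lower, against 27.1% of all genes. Cry1 was then 1.94 (SE 0.28, adjusted p = 0.115 in edgeR) and Nr1d1 -1.92 (SE 0.41, adjusted p = 0.245 in edgeR), so that still 0 passed. Leaving out hADMSCs-Exo 2 instead left 1 member at an unadjusted p under 0.05, beside 8.59% of all genes, and Arntl at 0.99. With a library other than hADMSCs-Exo 1 left out, 1 to 3 members did not overlap, beside 20% to 29.9% of all genes. The directions of all 9 were kept whichever of the 6 libraries was left out.

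**Figure D5:**
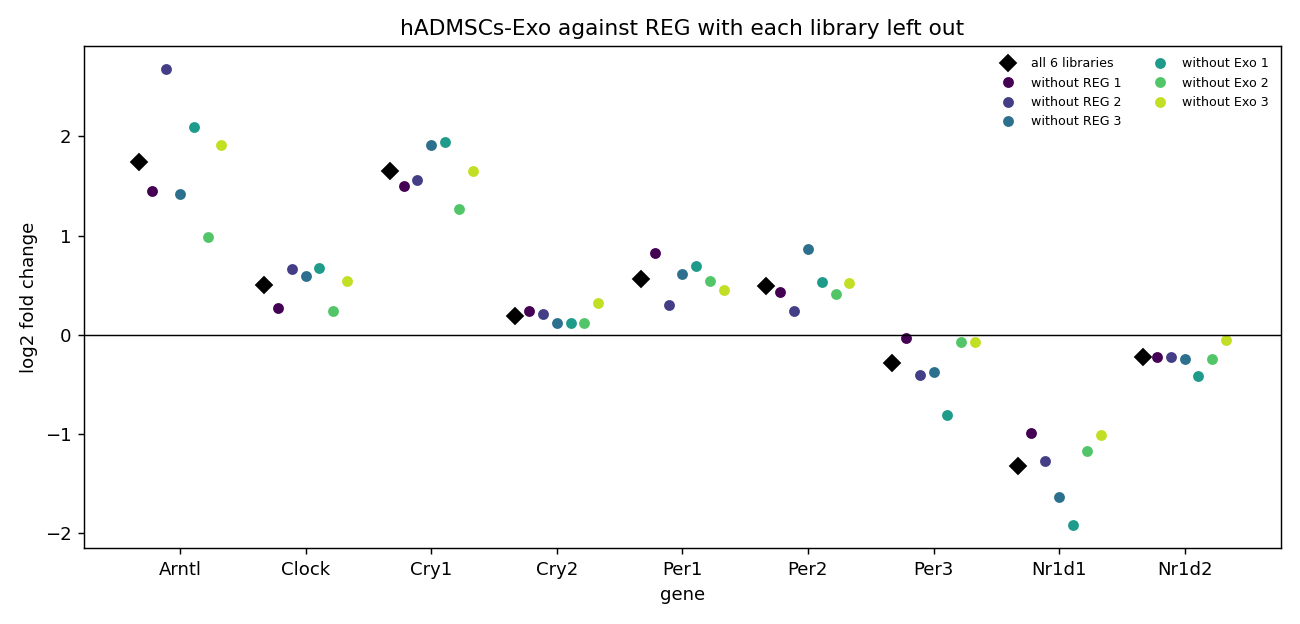
Log2 fold change of the 9 tested clock genes in hADMSCs-Exo (Exo) against REG with all 6 libraries (black diamonds) and with each library left out in turn (coloured points). Every point of a gene lies on the same side of 0, Cry1 between 1.27 and 1.94 and Nr1d1 between -1.92 and -0.99.

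Genes tied to the clock were counted by list, all over the same fits. Of the PAR bZIP output factors and Nfil3, which carry the rhythm from the loop to metabolic genes through D-boxes, 4 were tested. Their activator Dbp stood at 61.1, 53.0 and 43.8 FPKM in REG and at 43.8, 14.9 and 19.5 in hADMSCs-Exo, while Nfil3, the repressor at the same sites, stood at 4.77, 6.00 and 2.71 and at 9, 14.2 and 8.49. Nfil3 was higher (log2 fold change 1.16, SE 0.31, adjusted p = 0.394 in edgeR) and Dbp lower (-1.09, SE 0.35, adjusted p = 0.411 in edgeR) in hADMSCs-Exo against REG, neither past the adjusted threshold. These 2 of the 4 had an unadjusted p under 0.05 and did not overlap between the groups, beside 10% and 15.5% of all genes. In LFG Dbp stood at 10.9, 7.90 and 40.2 FPKM and Nfil3 at 15.2, 32.1 and 4.21, LFG 3 being the high and the low library. The log2 fold change of Nfil3 in REG against LFG was -1.67 (SE 0.63, adjusted p = 0.41 in edgeR), and -0.77 without LFG 2.

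Of 6 tested transcription factors of the side loops, Rora, whose product competes with REV-ERB at ROREs, was the only one at an unadjusted p under 0.05, in REG against LFG (-0.48, SE 0.18). Of 10 kinases and ubiquitin ligases that set the life span of clock proteins, only Gsk3b, a kinase that phosphorylates REV-ERBα and CRY2, did so, also in REG against LFG (-0.72, SE 0.16), where 11.3% of all genes did. Neither list had such a member in the other comparisons, and 0 members of either passed both thresholds in any.

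Of 11 rhythmic liver genes, 4 had an unadjusted p under 0.05 in REG against LFG, 2 in hADMSCs-Exo against LFG and 4 in hADMSCs-Exo against REG, beside 11.3%, 5.98% and 10% of all genes, and 0 passed both thresholds. Noct, a rhythmic NADP(H) phosphatase, stood at 7.12, 10.3 and 18.5 FPKM in LFG, 1.59, 1.83 and 3.03 in REG and 3.96, 4.8 and 5.52 in hADMSCs-Exo. Its log2 fold change was -2.46 (SE 0.58) in REG against LFG, -1.37 (SE 0.52) in hADMSCs-Exo against LFG and 1.09 (SE 0.27) in hADMSCs-Exo against REG, the last with adjusted p = 0.38 in edgeR. Without LFG 3 it was at -1.65 and -0.58 against LFG. In REG against LFG, Cyp7a1, the rate-limiting enzyme of bile acid synthesis, was at 1.37 (SE 0.53) and Lpin1, a phosphatidate phosphatase, at -1.50 (SE 0.63). With single libraries left out, Cyp7a1 ran from 0.97 to 2.08 and Lpin1 from -1.99 to -0.74. In hADMSCs-Exo against REG, Nampt, the rate-limiting enzyme of NAD salvage, was at 0.55 (SE 0.14), the fatty acid elongase gene Elovl3 at 2.23 (SE 0.76) and Rgs16, a regulator of G protein signalling, at -1.67 (SE 0.59). Elovl3 then ran from 1.61 to 3.08 and Rgs16 from -2.14 to -1. Elovl3 rested on low levels, 0.0608 to 1.21 FPKM in REG and 1.72 to 5.51 in hADMSCs-Exo, and stood at 30.4 FPKM in LFG 3 against 0.0293 and 0.0616 in LFG 1 and LFG 2.

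Glucocorticoid, cAMP and feeding signals act on Per1 and on liver rhythms from outside the loop. Genes induced by the first 2 and genes of the feeding state are given beside the members. Of 10 inducible genes, 5 had an unadjusted p under 0.05 in REG against LFG, all lower, 3 in hADMSCs-Exo against LFG, all lower, and 2 in hADMSCs-Exo against REG, both higher, beside the same 11.3%, 5.98% and 10% of all genes. In REG against LFG the log2 fold changes were -1.71 (SE 0.38) for Tsc22d3, a glucocorticoid target, -1.91 (SE 0.47) for the kinase Sik1, -0.99 (SE 0.29) for Crem and -2.22 (SE 0.69) for Fos, both CREB targets, the median of the 10 being -1.17. Fos was at -1.14 without LFG 3. Against LFG, hADMSCs-Exo stood at -1.95 (SE 0.66) for Fos, -0.85 (SE 0.30) for Crem and -1.29 (SE 0.50) for Sik1. Fos was at -0.89 without LFG 3, and Crem at -0.51 and Sik1 at -0.71 without LFG 2. Against REG, hADMSCs-Exo stood at 1.07 (SE 0.42) for Tsc22d3 and 0.77 (SE 0.31) for Fkbp5, another glucocorticoid target. Tsc22d3 was at 0.70 without hADMSCs-Exo 3 and Fkbp5 at 0.36 without hADMSCs-Exo 2. Per1, with the same kind of input, was at -1.18, -0.63 and 0.56 in those comparisons, and the part of these signals in the member values was not tested.

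Of 9 tested feeding state genes, 7 had an unadjusted p under 0.05 in REG against LFG, 5 lower and 2 higher, 1 in hADMSCs-Exo against LFG and 2 in hADMSCs-Exo against REG, where all genes gave 11.3%, 5.98% and 10%. Igfbp1, a fasting-induced binding protein, stood at 260, 1314 and 50.8 FPKM in LFG, 35.1, 33.5 and 13.1 in REG and 2.47, 85.1 and 82.5 in hADMSCs-Exo. The log2 fold change of Igfbp1 was -4.06 (SE 1.12) in REG against LFG and -2.13 without LFG 2. In that comparison Angptl4, a fasting-induced lipase inhibitor, was at -1.53 (SE 0.34), Pck1, a gluconeogenic enzyme, at -1.26 (SE 0.44) and Srebf1, the regulator of lipogenesis, at 1.38 (SE 0.38). G6pc, the last enzyme of gluconeogenesis, was at -2.10 (SE 0.76) in hADMSCs-Exo against LFG. In hADMSCs-Exo against REG, Srebf1 was at -0.99 (SE 0.20) and the fatty acid synthase gene Fasn at -1.09 (SE 0.39), or -0.57 without REG 3. None of these passed the adjusted threshold in edgeR, and the part of feeding in the member values was not tested.

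The genes most like Arntl in log2 CPM over the 9 libraries, among 12759 genes, were Ptpro (Pearson r = 0.97, Spearman rho = 0.98), Prex1 (0.97 and 0.97), Tasor2 (0.97 and 0.93), Parp8 (0.96 and 0.93) and Clpx (0.96 and 0.98). The most opposite were Mfsd3 (-0.95 and -0.92), Sirt4 (-0.95 and -0.97), Etfa (-0.94 and -0.88), Eci1 (-0.94 and -0.95) and Sft2d3 (-0.94 and -0.95). These are descriptions over 9 libraries that share groups and composition, and without LFG 3 only 3 of the 5 most alike genes stayed in the first 5 and none of the 5 most opposite in the last 5. Among the members, Clock had r = 0.75 with Arntl (0.92 without LFG 3), Cry1 0.54 (0.69), Per3 -0.60 (-0.82), Nr1d1 -0.54 (-0.48), Nr1d2 -0.50 (-0.34) and Cry2 0.08 (0.34). Counted from the most alike of the 12759 genes over the 9 libraries, Clock ranked 1028, Cry1 2980 and Cry2 6077. Nr1d2 ranked 9734, Nr1d1 9983 and Per3 10501, so many other genes were more like Arntl, or more opposite to it, than these members. Per1 and Per2 turned in sign, from -0.21 to 0.45 and from -0.33 to 0.23 without LFG 3.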

How the data were processed

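The authors prepared libraries from mouse liver RNA with the NEBNext Ultra RNA kit and deposited raw counts and FPKM for 9 libraries on GRCm38. The submitters' processing notes name cutadapt 1.15, HISAT2 2.0.5, HTSeq 0.9.1 and DESeq 1.30.0. The deposited FPKM equals counts divided by gene length and library total, without TMM scaling, to a relative difference of at most 9.19e-07. The columns MSC_E were read as hADMSCs-Exo.

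Members and lists were chosen with earlier results of these data known. Companion genes named in the text are at most 4 per list and comparison with the smallest unadjusted p under 0.05, together with all 10 members, Thra and the 5 genes most and 5 least like Arntl; names outside this rule were chosen after their values were seen. A gene that the rule names is not reported here. Counts were tested, two-sided, with edgeR 4.0.16 in R 4.3.3 (quasi-likelihood, TMM, edgeR's filter on low counts, 6 libraries a fit, Benjamini-Hochberg adjustment over all 12517, 12489 and 12337 genes tested). The SE is the absolute log2 fold change over the square root of F. Log2 CPM used a prior count of 2, and overlap of groups was read on it. DESeq2 1.42.0 and limma 3.58.1 were alternatives. The script was tested on simulated data. Deviations from the group mean had r of 0.107, 0.313 and 0.191 between same-numbered hADMSCs-Exo and LFG libraries. Differently numbered libraries were not compared, so these r cannot show a pairing, and the labels state none. The replicate block was run as an alternative only. An exact permutation test of 3 against 3 cannot go below p = 0.1 and was not used.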

Additional observations from a re-analysis of the deposited data

How the results depend on the processing

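Over 14 alternatives, 362 of 375 member fold changes kept direction and side of the threshold, 7 passed it newly and 6 reversed, all 6 with adjusted p of 0.801 or more. Nr1d2 in REG against LFG became -0.11 with library totals alone and ran from -0.14 (without LFG 1) to 0.22 with single libraries left out. In hADMSCs-Exo against LFG, Cry1 became -0.12 with limma voom and, with single libraries left out, ran from -0.06 (without hADMSCs-Exo 2) to 0.92, Cry2 from -0.45 to 0.10 (without LFG 2) and Per2 from -0.67 to 0.09 (without LFG 3). Members past both thresholds in REG against LFG numbered 2 with limma voom and 0 to 4 when single libraries were left out; in hADMSCs-Exo against REG, 1 with DESeq2 and 0 to 0. Members at an unadjusted p under 0.05 numbered, in REG against LFG, 8 with limma voom (42% of all genes) and 0 to 6 with single libraries left out; in hADMSCs-Exo against LFG, 1 with library totals alone (5.39% of all genes), 1 with limma voom (28.1%) and 0 to 2 (2.91% to 28.5%); in hADMSCs-Exo against REG, 1 to 7 (4.92% to 10.7%). The cause was not tested.

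With the replicate block these counts were 3 in REG against LFG, 0 in hADMSCs-Exo against LFG and 5 in hADMSCs-Exo against REG, beside 8.61%, 5.72% and 9.52% of all genes, and 0 members passed both thresholds in any, so it changed no call. Removing the limit on fold change called no member in the main edgeR fit. Under limma voom, Clock (adjusted p = 0.0308) and Per3 (adjusted p = 0.033) would then be called in REG against LFG. For same-numbered libraries r was 0.422, -0.206 and 0.315 in REG against LFG and 0.144, -0.00713 and 0.0275 in hADMSCs-Exo against REG. These cannot show a pairing either. Over all genes, edgeR called 0, 0 and 1 in the order of the report, DESeq2 240, 60 and 67, and limma voom 1285, 1 and 3. Without LFG 3 edgeR called 1391 genes in REG against LFG and 773 in hADMSCs-Exo against LFG, and with no filter on low counts 4 in hADMSCs-Exo against REG. With all 9 libraries in one fit these were 0, 1 and 0. Depth limits Arntl and Npas2 most: 3 counts are 0.0201 to 0.0288 FPKM of Arntl.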
